A study of Mus musculus with 8 samples.

Results

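Chromosome 6 of the mouse carries a stretch of neighbouring genes whose transcripts were at roughly 0.5 of the Control level in embryonic stem cell libraries labelled HSVTK, and 58 named genes of it, listed as lying between Scrn1 and Tmf1, are described here. All 58 were found by symbol among the 57010 genes of the count table and all were among the 17976 genes that passed the filter on low counts. They were picked because HSVTK libraries held less of their RNA than Control libraries, so that contrast is given for them as a description and without a test. The gene order of a mouse annotation placed 57 of them in the stretch. Mphosph10 lies on chromosome 7 in that annotation and goes against the listing.

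The study sequenced RNA from mouse embryonic stem cells in 8 libraries, 2 per group. HSVTK cells are a 2C::HSVTK reporter line, in which the herpes simplex virus thymidine kinase is meant to make cells in a 2-cell-like state sensitive to ganciclovir, a prodrug that the kinase turns into a toxic nucleotide. The 4 groups are HSVTK cells with ganciclovir (HSVTK GANC), HSVTK cells with the solvent DMSO (HSVTK DMSO), Control cells with ganciclovir (Control GANC) and Control cells with DMSO (Control DMSO). The labels do not give the dose, the duration, what the Control cells carry, whether either line is a single clone, or whether the 2 libraries in each group were grown as separate cultures. A p-value here therefore reflects how far these libraries scatter, and that scatter may be technical. Libraries are numbered within their group (HSVTK DMSO 1 and 2).

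In a diploid cell each autosomal gene is present on both homologous chromosomes, and transcript levels often follow the number of copies, although some genes are held nearer to their usual level, which is called buffering or dosage compensation. Many members here encode subunits of complexes built in fixed proportions, such as the CCT chaperonin, the MCM helicase and the mitochondrial ribosome, whose other subunits are encoded elsewhere in the genome. DNA copy number was not analysed here, and all values below are RNA levels.

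Libraries held 29704460 to 34184475 counts. All 8 markers of the stem cell list had counts in every library, and their summed level was 5148 to 6120 CPM in HSVTK libraries and 4793 to 5342 CPM in Control libraries (CPM is the count over the TMM-scaled library total, times 1000000). Tdgf1 had group means of 813 CPM in HSVTK GANC, 1303 CPM in HSVTK DMSO, 670 CPM in Control GANC and 560 CPM in Control DMSO. With ganciclovir Sox2 (357 against 490 CPM), Zfp42 (842 against 900 CPM) and Dppa5a (1226 against 1295 CPM) were lower in HSVTK than in Control cells. The other markers of that list were higher, and with DMSO all 8 were. The summed level of 6 primitive endoderm markers was 21.0 to 25.9 CPM in HSVTK libraries and 8.16 to 9.29 CPM in Control libraries, that of 7 fibroblast and feeder markers 15.9 to 18.2 and 8.62 to 12.6 CPM, that of 4 trophectoderm markers 5.55 to 11.2 and 3.49 to 5.80 CPM, and that of 3 neuroectoderm markers 17.5 to 21.6 and 35.9 to 51.9 CPM. Of the fibroblast list, Thy1 made up most of the sum, with group means of 16.1 CPM in HSVTK GANC, 15.4 CPM in HSVTK DMSO, 10.5 CPM in Control GANC and 7.82 CPM in Control DMSO, Col1a1 had 0.4001 to 0.995 CPM, and Postn, Dcn, Lum and Twist2 were at or near 0 in all 8 libraries. Col1a2 went the other way from Thy1. Its group means were 0.0915 and 0.135 CPM in HSVTK GANC and HSVTK DMSO, and 0.364 and 0.313 CPM in Control GANC and Control DMSO. The gap of the neuroectoderm sum lay mostly in Pax6, at 7.54, 9.298, 23.9 and 39.8 CPM in that order. Nes had 8.23, 8.63, 9.84 and 7.61 CPM. Col4a1 led the endoderm sum, at 14.5, 18.4, 6.65 and 5.34 CPM, and Gata4 and Gata6 went the same way. Sox7 was mixed, at 2.13, 0.695, 0.594 and 0.961 CPM, and with DMSO it was lower in HSVTK than in Control cells. Sox17 had 0.181, 0.333, 0.0629 and 0.219 CPM, and Dab2 had 1.78, 1.77, 1.48 and 1.41 CPM. Krt8 led the trophectoderm sum, at 9.88, 6.54, 3.66 and 2.89 CPM. Cdx2 went the other way, at 0.312, 0.271, 0.695 and 0.362 CPM. These lineage sums rest largely on single genes and do not measure cell types. Mitochondrial genes took 3.56 and 3.45% of the counts in HSVTK GANC libraries and at most 3.17% in the other 6. The part of these levels in the results was not tested. Zscan4c, a marker of the 2-cell-like state that the system is meant to remove, had 8.53 and 8.88 CPM in the libraries labelled HSVTK GANC, 4.70 and 3.59 CPM in HSVTK DMSO, 4.997 and 4.15 CPM in Control GANC and 5.23 and 4.10 CPM in Control DMSO. It was thus highest in the libraries in which the labels imply its removal, and every direction below rests on those labels as given.

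The summed level of the 58 members was 4560 ± 19.2 CPM in HSVTK GANC and 4365 ± 24.3 CPM in HSVTK DMSO libraries, against 8278 ± 117 CPM in Control GANC and 8513 ± 51.3 CPM in Control DMSO libraries (mean ± SD, n = 2 each). The ratio of the sums was 0.551 with ganciclovir and 0.513 with DMSO. Abundant members weigh most in these sums. Among them Mat2a had group means of 557 CPM in HSVTK GANC, 401 CPM in HSVTK DMSO, 793 CPM in Control GANC and 855 CPM in Control DMSO. Every one of the 4 HSVTK libraries was below every one of the 4 Control libraries for 56 members, with Rnf103 and Mphosph10 as the exceptions, while 10.2% of all tested genes had that order. In bulk RNA, fewer cells that carry these transcripts and less of them in each cell cannot be told apart. The fitted HSVTK to Control ratio of the median member was 0.511 with ganciclovir and 0.496 with DMSO.

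Along the chromosome most genes of the stretch were lowered and most of their nearest neighbours were not. On the left side Snx10, Skap2, Halr1, Hibadh and Tax1bp1 had ratios of 0.886, 0.971, 0.927, 1.09 and 1.04 with ganciclovir and of 0.794, 1.095, 1.08, 1.15 and 0.796 with DMSO, and the next gene, Scrn1, stood at 0.441 and 0.296. On the right side Suclg2 was the last member with a ratio below 0.8 in both treatments, at 0.415 and 0.675. Eogt, its neighbour among genes with a mean of at least 5 CPM, was at 0.927 and 1.21. Tmf1, listed as the end of the stretch, followed at 0.913 and 0.738. Beyond it Uba3, Arl6ip5, Mitf, Foxp1 and Tpt1-ps3 were at 0.888, 0.988, 1.87, 0.640 and 1.05 with ganciclovir and at 1.04, 0.987, 1.48, 0.698 and 0.817 with DMSO. From Scrn1 to Suclg2 there were 128 genes at that level.

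**Figure D1:**
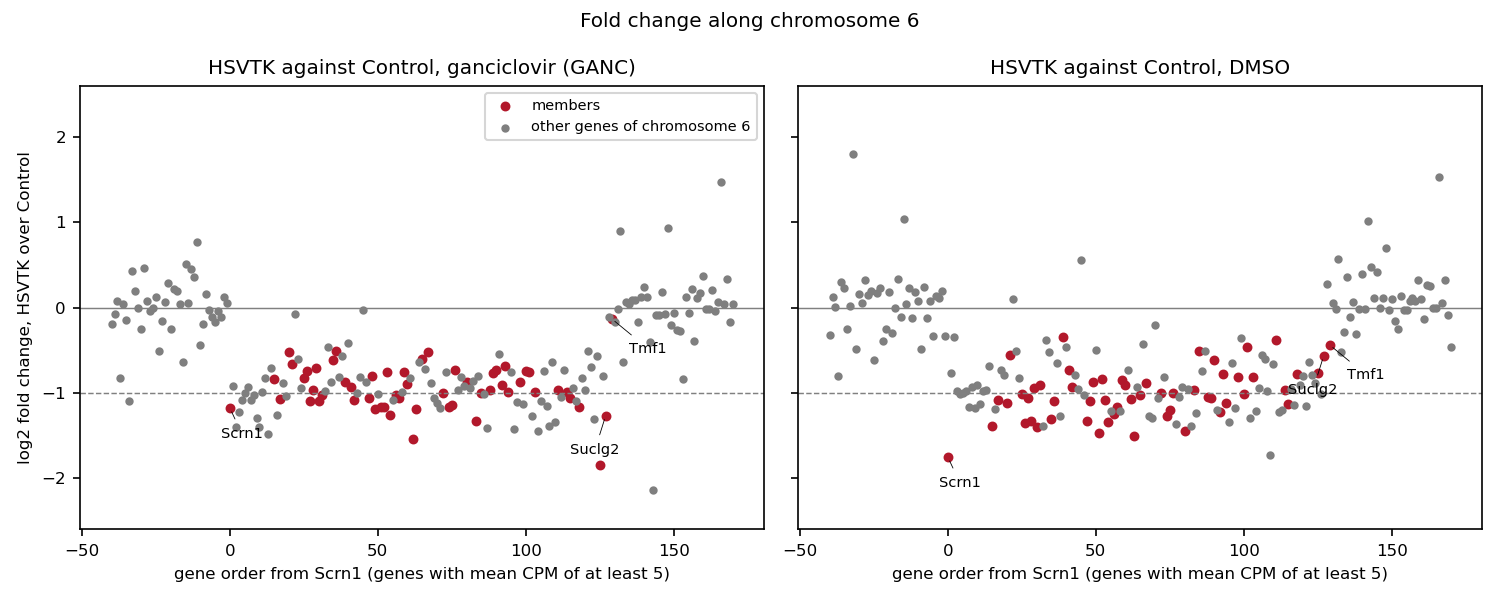
Log2 fold change, HSVTK over Control, of genes in and near the stretch on chromosome 6, in order from Scrn1, with ganciclovir (left) and with DMSO (right). Only genes with a mean of at least 5 CPM are drawn, and genes further from the stretch, such as Mest and Aass, are not shown. Red points are members, grey points other genes, and the dashed line marks a ratio of 0.5; the members lie around that line up to Suclg2, whereas Tmf1 (0.913 and 0.738) lies nearer to the line at 0.

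Genes of the stretch that were not listed had similar ratios: 74 of them with a mean of at least 5 CPM had a median ratio of 0.520 with ganciclovir and 0.518 with DMSO. With ganciclovir 3 of them were above 0.8, namely Eogt, Rpl34-ps1 (0.946 and 1.07) and Gm9008 (0.984 and 1.47), of which Rpl34-ps1 is named as a pseudogene and may share reads with other copies. In the rest of chromosome 6 the median ratio was 0.990 and 1.05 over 308 genes at that level. Single genes there were low too: 4 of the 308 were below 0.4 and 9 at 0.4 to 0.6 with ganciclovir, among them Mest (0.183 and 0.159), Aass (0.169 and 0.304) and Dennd11 (0.564 and 0.574), named after their values were seen. On other chromosomes it was 0.986 and 0.995 over 9654 genes. All genes of the stretch together took 0.918 and 0.937% of the counts in HSVTK GANC and 0.907 and 0.906% in HSVTK DMSO libraries, against 1.64 and 1.67% in Control GANC and 1.67 and 1.66% in Control DMSO libraries.

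Without Mphosph10 and without Tmf1, which was set aside after its values were seen, 56 members remain. Their median ratio was 0.520 and 0.511 in the HSVTK GANC libraries and 0.495 and 0.4998 in the HSVTK DMSO libraries, each taken over the mean of both Control libraries with the same treatment. With ganciclovir 43 of the 56 had a fitted ratio of 0.4 to 0.6, and with DMSO 38 did, where 6.04% and 6.59% of all tested genes fell in that band. Since the members were chosen on this contrast, nothing is read from these shares. For 46 members the geometric mean of both ratios was in that band, 3 were below it (Scrn1, Dguok and Aup1) and 7 above it (Eif2ak3, Sec61a1, Retsat, Nup210, Gfpt1, Zfp638 and Cnbp). The SD of the log2 ratio over the 56 was 0.26 with ganciclovir and 0.31 with DMSO, beside a median standard error of 0.08 in each.

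**Figure D2:**
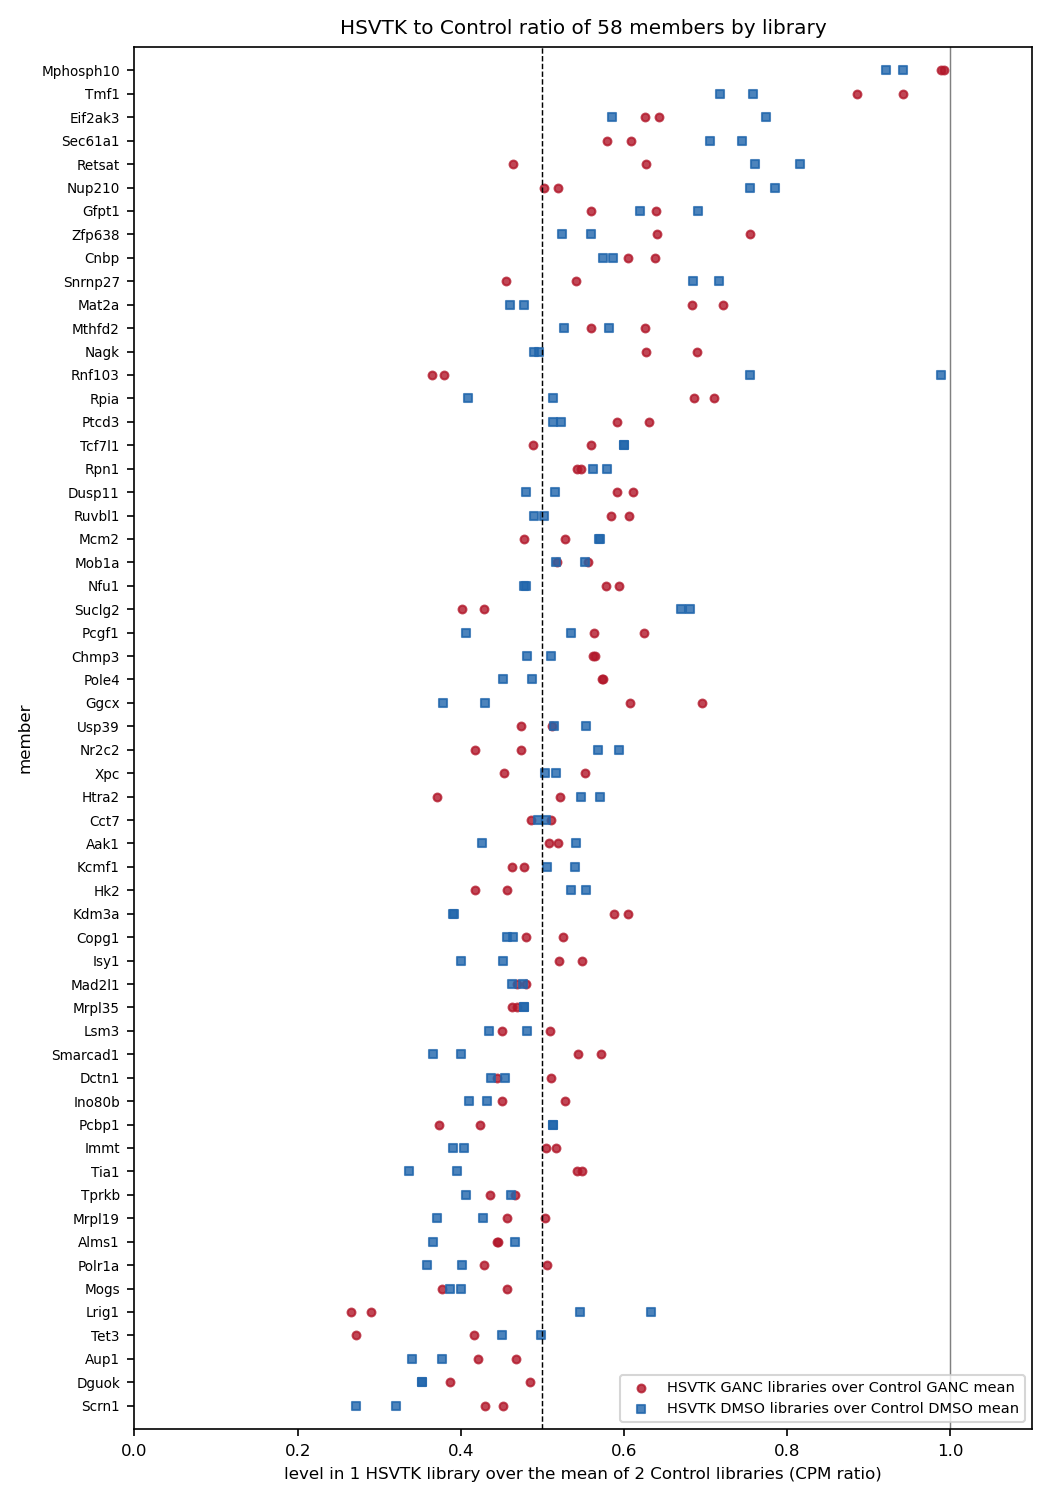
Level in each HSVTK library over the mean of the 2 Control libraries with the same treatment, for the 58 members sorted by mean ratio; circles are HSVTK GANC and squares HSVTK DMSO libraries, and the dashed line marks 0.5. Most points lie around 0.5, Mphosph10 lies near 1, and several members, such as Suclg2, Lrig1, Rnf103 and Mat2a, have circles and squares far apart.

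Over the 56 members the log2 ratios with ganciclovir and with DMSO had a Pearson correlation of 0.01 and a Spearman correlation of 0.10 across genes. Genes are not independent replicates, and the 2 ratios share no library. The members were chosen on this contrast, which may narrow the range of both ratios. Nothing is therefore read from these correlations or from the overlap of the genes listed next. With ganciclovir the ratio was above 0.6 in 9 members (Rpia, Eif2ak3, Ptcd3, Ggcx, Mat2a, Nagk, Zfp638, Dusp11 and Cnbp), with DMSO in 8 (Eif2ak3, Rnf103, Retsat, Snrnp27, Gfpt1, Sec61a1, Nup210 and Suclg2), and Eif2ak3 was the 1 member above it in both. Below 0.4 were Rnf103, Tet3, Pcbp1 and Lrig1 with ganciclovir and 10 members with DMSO (Scrn1, Smarcad1, Kdm3a, Immt, Polr1a, Mrpl19, Aup1, Mogs, Dguok and Tia1), and none was below it in both. The mean ratio had a Spearman correlation of 0.15 with the Control level in FPKM (fragments per kilobase of transcript, scaled by the library total) and of -0.13 with transcript length over the same 56 genes, both given as descriptions. In Control libraries the members spanned 0.412 FPKM for Rnf103 to 292 FPKM for Cnbp.

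Among the 7 members of replication, mitosis and genome repair, the mean ratio ran between 0.454 and 0.543. Mcm2, a subunit of the replicative helicase, was at 0.503 with ganciclovir and 0.570 with DMSO, Pole4, a small subunit of DNA polymerase epsilon, at 0.574 and 0.469, and Xpc, which recognises damaged DNA in nucleotide excision repair, at 0.503 and 0.510. Mad2l1, a spindle checkpoint protein, had 99.1 and 101 CPM in HSVTK GANC and 96.8 and 99.7 CPM in HSVTK DMSO, against 216 and 207 CPM in Control GANC and 206 and 212 CPM in Control DMSO libraries. Its ratios of 0.474 and 0.470 differed little between the treatments. Ruvbl1, an ATPase shared by several chromatin complexes, Ino80b, a subunit of the INO80 remodeller, and Smarcad1, a chromatin remodeller of DNA repair, were at 0.595, 0.490 and 0.557 with ganciclovir and at 0.495, 0.421 and 0.383 with DMSO.

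The 6 members of chromatin and transcription had mean ratios of 0.404 to 0.560. Tet3, a dioxygenase that oxidises 5-methylcytosine, was the lowest of them, with 5.14 and 3.35 CPM in HSVTK GANC and 5.20 and 5.75 CPM in HSVTK DMSO, against 12.2 and 12.5 CPM in Control GANC and 10.6 and 12.4 CPM in Control DMSO libraries. All HSVTK libraries lay below all Control libraries. Polr1a, the largest subunit of RNA polymerase I, was at 0.466 and 0.380, and Tcf7l1, a repressor of Wnt target genes in stem cells, at 0.524 and 0.5996. Pcgf1, a subunit of a Polycomb complex, was at 0.594 and 0.471, Nr2c2, an orphan nuclear receptor, at 0.445 and 0.582, and Kdm3a, a histone demethylase, at 0.597 and 0.391.

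The 10 members of RNA processing and binding include Mphosph10, a protein of the U3 ribonucleoprotein that processes ribosomal RNA. It had 104 and 104 CPM in HSVTK GANC and 111 and 113 CPM in HSVTK DMSO, against 111 and 99.0 CPM in Control GANC and 118 and 122 CPM in Control DMSO libraries, with ratios of 0.990 and 0.932. Its HSVTK and Control libraries overlapped, unlike those of the other 9. Cnbp, a nucleic acid binding protein, and Zfp638, a zinc finger protein, were at 0.621 and 0.697 with ganciclovir and at 0.581 and 0.542 with DMSO. Usp39 and Isy1, proteins of the spliceosome, were at 0.492 and 0.535 with ganciclovir and at 0.533 and 0.426 with DMSO, and Lsm3, of the LSM ring, at 0.480 and 0.458. Pcbp1, an intronless gene for a poly(C)-binding protein, overlaps an antisense transcript in some annotations, and since no source used here gives the strand setting of the counting, its level of 103 FPKM in HSVTK and 223 FPKM in Control libraries is uncertain.

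The 9 mitochondrial members had mean ratios of 0.392 to 0.573. Dguok, the deoxyguanosine kinase that supplies nucleotides for mitochondrial DNA, was the lowest, with 5.20 and 6.52 CPM in HSVTK GANC and 5.30 and 5.29 CPM in HSVTK DMSO, against 13.8 and 13.0 CPM in Control GANC and 15.2 and 14.8 CPM in Control DMSO libraries. No HSVTK library reached a Control library. Mrpl35 and Mrpl19, proteins of the large mitochondrial ribosomal subunit, were at 0.466 and 0.480 with ganciclovir and at 0.478 and 0.398 with DMSO, and Ptcd3, of the small subunit, at 0.611 and 0.518. Mthfd2, an enzyme of mitochondrial folate metabolism that is abundant in dividing cells, was at 0.593 and 0.555. Immt, which shapes the cristae, was at 0.510 and 0.397, Nfu1, which delivers iron-sulfur clusters, at 0.586 and 0.478, and Htra2, a protease of the intermembrane space, at 0.446 and 0.559.

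Metabolic enzymes formed the group with the widest gap between treatments: the median ratio of its 7 members was 0.653 with ganciclovir and 0.493 with DMSO. Mat2a, which makes S-adenosylmethionine, was at 0.702 and 0.469, Rpia, an isomerase of the pentose phosphate pathway, at 0.699 and 0.461, Nagk, a kinase of amino sugar salvage, at 0.658 and 0.493, and Ggcx, the vitamin K dependent carboxylase, at 0.653 and 0.404. Hk2, the hexokinase of the first step of glycolysis, went the other way, at 0.436 and 0.544. Gfpt1, the first enzyme of the hexosamine pathway, was at 0.5996 and 0.655. Retsat, a retinol saturase, had 5.58 and 4.13 CPM in HSVTK GANC and 5.67 and 5.29 CPM in HSVTK DMSO, against 8.83 and 8.95 CPM in Control GANC and 6.22 and 7.69 CPM in Control DMSO libraries, which puts it at 0.545 and 0.789. The higher HSVTK DMSO library lay just under the lower Control DMSO library.

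The 11 members of the secretory pathway and trafficking had mean ratios of 0.361 to 0.821. Scrn1, known from mast cells as a regulator of exocytosis, had 5.68 and 5.98 CPM in HSVTK GANC and 5.27 and 4.47 CPM in HSVTK DMSO, against 12.8 and 13.6 CPM in Control GANC and 16.6 and 16.2 CPM in Control DMSO libraries, and its mean ratio of 0.361 was the lowest of all members. Aup1, a protein of lipid droplets and of protein degradation at the endoplasmic reticulum, had 11.7 and 10.5 CPM in HSVTK GANC and 9.69 and 10.7 CPM in HSVTK DMSO, against 22.3 and 27.6 CPM in Control GANC and 27.9 and 29.0 CPM in Control DMSO libraries. In both genes the HSVTK libraries lay far below the Control libraries. Mogs, the glucosidase that trims the first glucose of N-glycans, had 10.9 and 8.998 CPM in HSVTK GANC and 8.69 and 8.38 CPM in HSVTK DMSO, against 22.2 and 25.5 CPM in Control GANC and 21.4 and 22.02 CPM in Control DMSO libraries, and its ratios were 0.417 and 0.394.

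At the upper end of the same group, Eif2ak3, the PERK kinase that senses unfolded proteins in the endoplasmic reticulum, had 13.95 and 14.3 CPM in HSVTK GANC and 15.3 and 11.6 CPM in HSVTK DMSO, against 22.4 and 22.2 CPM in Control GANC and 18.3 and 21.3 CPM in Control DMSO libraries, with ratios of 0.634 and 0.680. Sec61a1, the channel subunit of the protein translocon, had 112 and 107 CPM in HSVTK GANC and 117 and 111 CPM in HSVTK DMSO, against 174 and 193 CPM in Control GANC and 160.5 and 154 CPM in Control DMSO libraries, with ratios of 0.594 and 0.725. Both genes were lower in each HSVTK library than in each Control library, yet above 0.5. Tmf1, a Golgi protein, had 23.4 and 21.97 CPM in HSVTK GANC and 19.4 and 20.5 CPM in HSVTK DMSO, against 26.1 and 23.5 CPM in Control GANC and 26.1 and 28.0 CPM in Control DMSO libraries. With ganciclovir its higher HSVTK library nearly met its lower Control library. Rpn1, a subunit of the oligosaccharyltransferase, Copg1, of the COPI coat, Chmp3, of the ESCRT-III complex, and Aak1, a kinase of endocytosis, were at 0.545, 0.502, 0.563 and 0.513 with ganciclovir and at 0.570, 0.460, 0.496 and 0.483 with DMSO.

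The remaining 8 members belong to folding, the cytoskeleton, the nuclear pore and signalling. Cct7, a subunit of the CCT chaperonin that folds actin and tubulin, had 410 and 431 CPM in HSVTK GANC and 428 and 437 CPM in HSVTK DMSO, against 818 and 871 CPM in Control GANC and 884 and 846 CPM in Control DMSO libraries. With ratios of 0.498 and 0.4999 it stood at 0.5 in both treatments. Mob1a, a Hippo pathway adaptor, was at 0.537 and 0.534, Tprkb, of the KEOPS complex that modifies transfer RNA, at 0.452 and 0.433, and Alms1, a centrosome protein, at 0.444 and 0.415. Dctn1, the large subunit of dynactin, was at 0.477 and 0.446 and Kcmf1, a ubiquitin ligase, at 0.471 and 0.523. Lrig1, a membrane protein that restrains growth factor receptors, was at 0.278 and 0.589, and Nup210, a membrane protein of the nuclear pore, at 0.511 and 0.770.

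The rule did not use the drug comparisons, so these were tested. In HSVTK cells ganciclovir against DMSO changed 14 of the 58 members at an adjusted p below 0.05 (edgeR quasi-likelihood test with Benjamini-Hochberg adjustment over all tested genes), 10 higher and 4 lower. That share of 24.1% stands beside 28.5% of all tested genes, 13.3% higher and 15.2% lower, and beside 38.9% of genes with a mean of at least 5 CPM, so the members were not called more often than the background. The median log2 change of the members was 0.04 and that of all tested genes 0.01. The count was 7 without HSVTK DMSO 2 and 9 without any 1 of HSVTK DMSO 1, HSVTK GANC 1 and HSVTK GANC 2.

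Mat2a rose with ganciclovir in HSVTK cells, with 542 and 572 CPM in HSVTK GANC against 408 and 394 CPM in HSVTK DMSO libraries, a log2 change of 0.47 ± 0.05 (SE, adjusted p = 5.54e-08). In Control cells it had 797 and 789 CPM with ganciclovir and 848 and 863 CPM with DMSO, a change of -0.11 ± 0.05 that did not pass (adjusted p = 0.203). Ganciclovir thus set the 2 HSVTK groups apart without overlap, while both stayed below the Control libraries. Tia1, an RNA-binding protein of stress granules, had 24.7 and 24.5 CPM in HSVTK GANC, against 18.2 and 15.5 CPM in HSVTK DMSO libraries, and rose by 0.55 ± 0.10 (adjusted p = 8.39e-05); Control GANC held 46.9 and 43.4 CPM and Control DMSO 45.8 and 46.5 CPM. Polr1a rose by 0.38 ± 0.07 (adjusted p = 0.000319), with 89.4 and 75.8 CPM in HSVTK GANC against 67.2 and 60.1 CPM in HSVTK DMSO libraries, and the change was 0.25 without HSVTK GANC 1.

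Suclg2, the subunit that makes the mitochondrial succinyl-CoA ligase use guanine nucleotides, fell in HSVTK cells. It had 23.3 and 24.9 CPM in HSVTK GANC against 39.3 and 39.9 CPM in HSVTK DMSO libraries, and 57.6 and 58.5 CPM in Control GANC against 58.2 and 59.0 CPM in Control DMSO libraries. The log2 change was -0.72 ± 0.08 in HSVTK cells (adjusted p = 1.22e-07) and -0.01 ± 0.08 in Control cells (adjusted p = 0.949). Lrig1 had 3.77 and 4.13 CPM in HSVTK GANC against 7.66 and 6.60 CPM in HSVTK DMSO libraries, and 13.1 and 15.4 CPM in Control GANC against 12.4 and 11.8 CPM in Control DMSO libraries. It fell by 0.85 ± 0.16 on the log2 scale in HSVTK cells (adjusted p = 0.00013), the largest called change of a member there. In both genes the HSVTK GANC libraries were the lowest of the 4 groups, without overlap. The calls of Mat2a, Tia1, Polr1a, Suclg2 and Lrig1 held without any 1 of the 8 libraries. With limma on log2(FPKM + 1) those of Tia1 (adjusted p = 0.0575), Polr1a (adjusted p = 0.0538) and Lrig1 (adjusted p = 0.0552) were lost.

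The other 9 called members each lost the call when 1 library was left out. Rpia had 8.62 and 8.94 CPM in HSVTK GANC against 6.92 and 5.52 CPM in HSVTK DMSO libraries, and 11.6 and 13.5 CPM in Control GANC against 12.9 and 14.1 CPM in Control DMSO libraries. It rose by 0.50 ± 0.14 in HSVTK cells (adjusted p = 0.00993), with 0.34 without HSVTK DMSO 2 and 0.46 without HSVTK GANC 2. Snrnp27, a protein of the U4/U6.U5 tri-snRNP of the spliceosome, had 24.1 and 28.6 CPM in HSVTK GANC against 35.9 and 34.3 CPM in HSVTK DMSO libraries, and 49.3 and 56.3 CPM in Control GANC against 54.0 and 46.1 CPM in Control DMSO libraries. It fell by 0.41 ± 0.10 on the log2 scale in HSVTK cells (adjusted p = 0.00193), a call lost without HSVTK GANC 1 (-0.30). Dctn1 rose by 0.35 ± 0.08 (adjusted p = 0.00145), a call that ended without HSVTK GANC 1 (0.24), and Smarcad1 by 0.25 ± 0.07 (adjusted p = 0.0106), lost without HSVTK DMSO 2 (0.18) or HSVTK GANC 1 (0.21). Kdm3a rose by 0.21 ± 0.06 (adjusted p = 0.00681), lost without HSVTK DMSO 1 (0.20), HSVTK DMSO 2 (0.21) or HSVTK GANC 2 (0.18). Immt, Nfu1 and Dusp11, a phosphatase of RNA ends, rose by 0.20, 0.22 and 0.21, and Pcbp1 fell by 0.19. Of these, Nfu1 lost its call without any 1 of the 4 HSVTK libraries (0.19 to 0.23), Immt without either HSVTK DMSO library (0.16 and 0.22) or HSVTK GANC 1 (0.18), Pcbp1 without either HSVTK DMSO library (-0.20 each) or HSVTK GANC 2 (-0.11), with -0.29 without HSVTK GANC 1, and Dusp11 without any HSVTK or Control DMSO library (0.15 to 0.25).

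In Control cells ganciclovir changed 9 members, 5 higher and 4 lower, a share of 15.5% beside 8.08% of all tested genes (4.73% higher and 3.35% lower) and 12.8% of genes with a mean of at least 5 CPM. The count was 3 without Control DMSO 1, 2 without Control DMSO 2 and 4 without Control GANC 2. The median log2 change of the members was -0.03. The calls of Kdm3a and Nup210 held without any 1 of the 8 libraries, but that of Nup210 was lost with limma on log2(FPKM + 1) (adjusted p = 0.114) and on log2(FPKM + 0.1) (adjusted p = 0.101).

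Kdm3a fell with ganciclovir in Control cells and rose in HSVTK cells. It had 135 and 139 CPM in HSVTK GANC against 118 and 119 CPM in HSVTK DMSO libraries, and 234 and 226 CPM in Control GANC against 303 and 305 CPM in Control DMSO libraries, so that no 2 groups overlapped. The log2 change in Control cells was -0.40 ± 0.06 (adjusted p = 6.48e-05). Nup210 had 28.8 and 29.7 CPM in HSVTK GANC against 32.6 and 33.9 CPM in HSVTK DMSO libraries, and 54.8 and 59.7 CPM in Control GANC against 42.8 and 43.6 CPM in Control DMSO libraries. It rose by 0.41 ± 0.08 in Control cells (adjusted p = 0.00216), and its HSVTK change of -0.19 ± 0.08 did not pass (adjusted p = 0.102). The high level of Control GANC libraries goes with the lower ratio of Nup210 with ganciclovir.

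Ggcx had 6.94 and 7.95 CPM in HSVTK GANC against 6.23 and 7.07 CPM in HSVTK DMSO libraries, and 10.9 and 11.97 CPM in Control GANC against 16.7 and 16.2 CPM in Control DMSO libraries. It fell by 0.53 ± 0.13 on the log2 scale in Control cells (adjusted p = 0.00948), a call lost without Control DMSO 1 (-0.50), Control DMSO 2 (-0.54) or Control GANC 1 (-0.44). Its HSVTK libraries overlapped between the treatments. Zfp638 had 60.6 and 51.4 CPM in HSVTK GANC against 56.1 and 52.5 CPM in HSVTK DMSO libraries, and 89.7 and 70.8 CPM in Control GANC against 99.3 and 101 CPM in Control DMSO libraries; it fell by 0.32 ± 0.09 in Control cells (adjusted p = 0.0226), a call lost without either Control DMSO library (-0.33 and -0.30) or Control GANC 2 (-0.16), with -0.48 without Control GANC 1. Smarcad1 had 96.1 and 91.3 CPM in HSVTK GANC against 82.2 and 75.1 CPM in HSVTK DMSO libraries, and 182 and 154 CPM in Control GANC against 198 and 212 CPM in Control DMSO libraries. It fell by 0.29 ± 0.07 in Control cells (adjusted p = 0.0114), lost without Control DMSO 2 (-0.23) or Control GANC 2 (-0.18).

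Dctn1 was the 1 member called in the same direction in both cell groups, with 54.6 and 47.5 CPM in HSVTK GANC against 39.2 and 40.7 CPM in HSVTK DMSO libraries, and 100.4 and 113 CPM in Control GANC against 88.7 and 90.7 CPM in Control DMSO libraries. Its change of 0.25 ± 0.08 in Control cells (adjusted p = 0.037) was lost without either Control DMSO library (0.24 and 0.28), Control GANC 2 (0.16) or either HSVTK DMSO library (0.26 each), and the difference of its responses was 0.10 ± 0.11 (adjusted p = 0.569). Hk2, Sec61a1 and Mcm2 rose by 0.22, 0.22 and 0.20 in Control cells. Without Control DMSO 1, Control DMSO 2 or Control GANC 2 all 3 lost their calls, at 0.20 to 0.23 for Hk2, 0.15 to 0.26 for Sec61a1 and 0.15 to 0.23 for Mcm2, and Sec61a1 and Mcm2 also lost theirs without either HSVTK DMSO library.

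**Figure D3:**
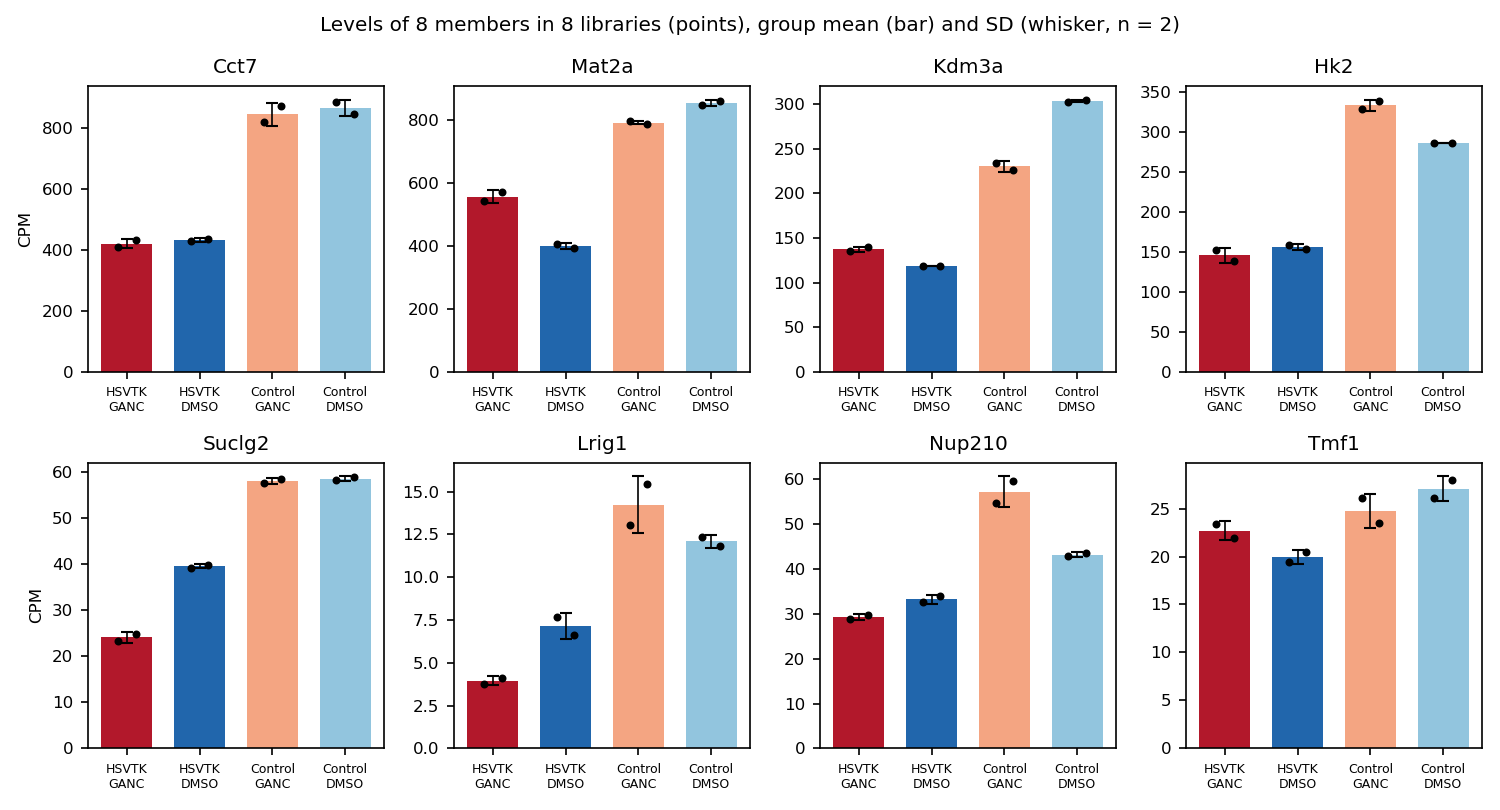
CPM of 8 members in each of the 8 libraries (points), with the group mean (bar) and SD (whisker, n = 2). In Cct7 the bars differ by cell group alone, Mat2a is higher and Suclg2 and Lrig1 are lower in HSVTK GANC than in HSVTK DMSO libraries, within Control cells Kdm3a is lower and Nup210 and Hk2 are higher with ganciclovir than with DMSO, and Tmf1 has HSVTK to Control ratios of 0.913 with ganciclovir and 0.738 with DMSO.

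The difference of the 2 drug responses, HSVTK minus Control, passed in 22 members, 14 higher and 8 lower. That is 37.9% of them, beside 25.6% of all tested genes (11.6% higher and 14% lower) and 35.6% of genes with a mean of at least 5 CPM. Its count was 12 without Control DMSO 2, 14 without HSVTK DMSO 1 and 13 without HSVTK GANC 2. The median difference of the members was 0.09 and that of all tested genes 0.02 on the log2 scale. A difference of responses is also the difference of the log2 ratios of the 2 treatments, so the 22 members are those whose distance from Control differed between ganciclovir and DMSO.

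For 10 of the 22 the call held without any 1 of the 8 libraries. Among the higher of these, Kdm3a differed by 0.61 ± 0.08 (adjusted p = 2.09e-06), Mat2a by 0.58 ± 0.07 (adjusted p = 6.43e-07), Tia1 by 0.58 ± 0.13 (adjusted p = 0.00145), Smarcad1 by 0.54 ± 0.10 (adjusted p = 0.000231) and Immt by 0.36 ± 0.08 (adjusted p = 0.00116). Among the lower, Lrig1 differed by -1.08 ± 0.20 (adjusted p = 0.00022), Suclg2 by -0.70 ± 0.11 (adjusted p = 2.55e-05), Nup210 by -0.59 ± 0.12 (adjusted p = 0.00035), Pcbp1 by -0.37 ± 0.09 (adjusted p = 0.00238) and Hk2 by -0.32 ± 0.08 (adjusted p = 0.00519). With limma on log2(FPKM + 1) 5 of the 10 lost the call, Hk2 (adjusted p = 0.061), Pcbp1 (adjusted p = 0.0969), Smarcad1 (adjusted p = 0.0756), Tia1 (adjusted p = 0.139) and Lrig1 (adjusted p = 0.0639), and on log2(FPKM + 0.1) the first 4 of these lost it. The 10 include enzymes of methyl donor supply, of the citric acid cycle and of glycolysis, both chromatin enzymes with a drug call in Control cells, and RNA-binding proteins.

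Rnf103, a ubiquitin ligase of the endoplasmic reticulum, had the largest difference and the fewest reads, with 1.205 and 1.26 CPM in HSVTK GANC against 2.18 and 1.66 CPM in HSVTK DMSO libraries, and 3.87 and 2.75 CPM in Control GANC against 2.46 and 1.95 CPM in Control DMSO libraries. Its difference of -1.22 ± 0.40 (adjusted p = 0.0226) lost the call without Control DMSO 2 (-1.09), Control GANC 1 (-0.98), HSVTK DMSO 1 (-1.04), HSVTK GANC 1 (-1.21) or HSVTK GANC 2 (-1.27). With DMSO its HSVTK and Control libraries overlapped. Ggcx differed by 0.69 ± 0.19 (adjusted p = 0.00736), lost without HSVTK DMSO 1 (0.58) or HSVTK GANC 2 (0.57). Rpia differed by 0.60 ± 0.20 (adjusted p = 0.0239), lost without Control DMSO 2 (0.52), Control GANC 1 (0.47), HSVTK DMSO 2 (0.43), HSVTK GANC 1 (0.61) or HSVTK GANC 2 (0.56). At the other extreme, 14 of the 56 members had a difference within 0.1 of 0, among them Cct7, Mad2l1, Mob1a, Xpc, Rpn1, Lsm3 and Mrpl35; a value that does not pass does not show that the responses were alike.

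**Figure D4:**
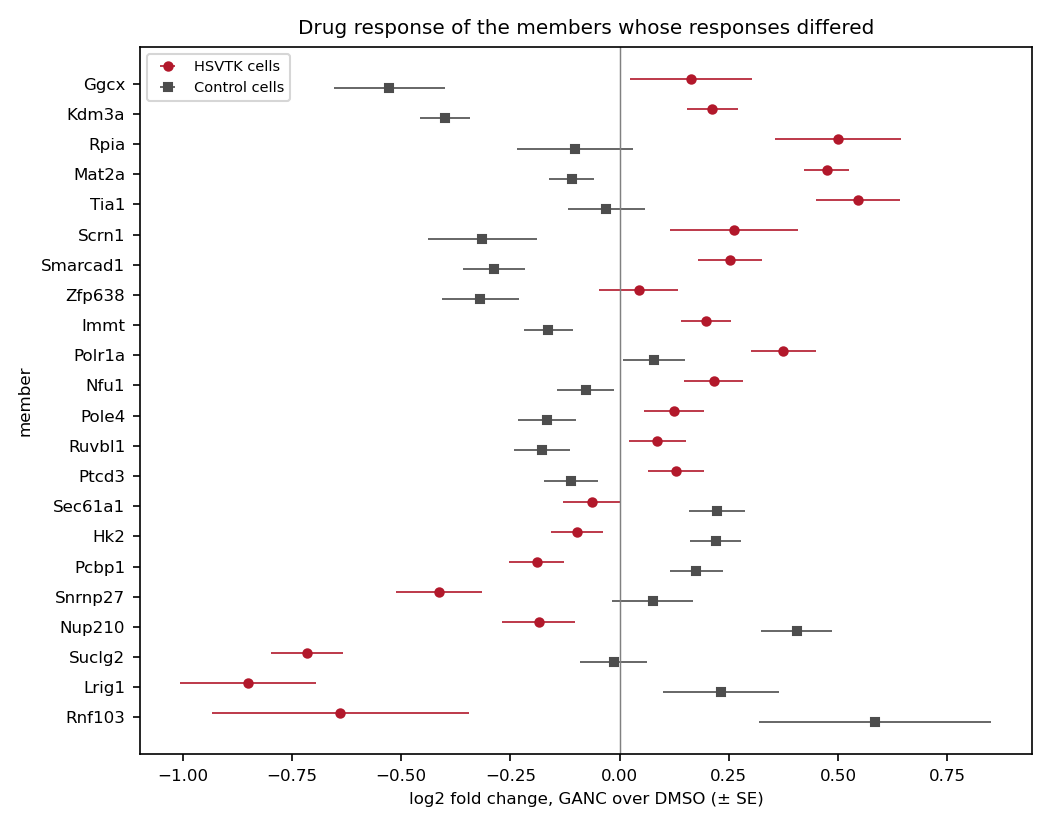
Log2 change with ganciclovir against DMSO in HSVTK cells (circles) and in Control cells (squares), with the standard error as the bar, for the 22 members whose responses differed, ordered by the difference. Circles lie right of squares in the 14 upper rows and left of them in the 8 lower rows, from 0.69 for Ggcx at the top to -1.22 for Rnf103 at the bottom.

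Promoter windows of 300 bases, 250 before to 50 after the start of transcription, were taken from RefSeq for build GRCm38.p6 and were found for 51 of the 58 members. The windows of 4 members whose responses differed are shown, 2 with a higher response in HSVTK cells (Mat2a and Kdm3a) and 2 with a lower one (Suclg2 and Hk2). The choice did not follow the size of the difference. Lrig1 (-1.08) and Nup210 (-0.59) had larger negative log2 differences than Hk2 (-0.32). All 4 lie on the minus strand, at chr6:72439507-72439806 for Mat2a, chr6:71632868-71633167 for Kdm3a, chr6:95718797-95719096 for Suclg2 and chr6:82774405-82774704 for Hk2, and are printed 5′ to 3′. Capitals mark the letters ACGTG on either strand, the core of the hypoxia response element.
Mat2a: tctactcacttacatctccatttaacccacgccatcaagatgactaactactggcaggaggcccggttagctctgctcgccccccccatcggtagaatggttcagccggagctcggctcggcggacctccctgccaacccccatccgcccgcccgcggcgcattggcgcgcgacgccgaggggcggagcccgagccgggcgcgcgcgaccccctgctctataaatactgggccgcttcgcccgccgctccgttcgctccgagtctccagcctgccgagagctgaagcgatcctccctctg
Kdm3a: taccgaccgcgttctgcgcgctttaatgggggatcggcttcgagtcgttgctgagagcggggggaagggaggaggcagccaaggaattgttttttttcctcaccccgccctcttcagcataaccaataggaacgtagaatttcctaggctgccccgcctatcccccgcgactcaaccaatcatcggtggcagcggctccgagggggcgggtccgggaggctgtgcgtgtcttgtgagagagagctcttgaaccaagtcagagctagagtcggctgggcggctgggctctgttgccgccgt
Suclg2: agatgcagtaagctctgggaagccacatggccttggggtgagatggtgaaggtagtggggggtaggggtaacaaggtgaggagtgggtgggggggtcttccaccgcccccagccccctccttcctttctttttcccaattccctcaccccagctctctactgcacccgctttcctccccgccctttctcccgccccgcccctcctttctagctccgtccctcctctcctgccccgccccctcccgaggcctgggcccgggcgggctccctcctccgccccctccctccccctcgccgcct
Hk2: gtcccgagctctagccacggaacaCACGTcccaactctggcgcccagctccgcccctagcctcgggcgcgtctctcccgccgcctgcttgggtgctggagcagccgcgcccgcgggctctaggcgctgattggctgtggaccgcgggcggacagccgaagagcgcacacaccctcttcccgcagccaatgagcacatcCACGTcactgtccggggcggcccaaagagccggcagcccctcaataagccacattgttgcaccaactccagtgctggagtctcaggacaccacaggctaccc
The windows of Mat2a, Kdm3a and Suclg2 hold no ACGTG on either strand and that of Hk2 holds 2, both read as CACGT on the printed strand. Of the 51 member windows 14 (27.5%) hold it, beside 19.7% of the 27025 windows of all genes. TGATGNAA, the motif bound by ATF4, was in 1 member window (Dusp11), beside 4.06% of all windows, and CACGTG, the E-box, which contains ACGTG, in 1 (Pcbp1), beside 7.24%. A match is a description of letters and not a binding site, and windows without a match say nothing about the factor.

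Partners of the members in 29 complexes and pathways were then compared between HSVTK and Control cells, since the rule did not choose them. The contrast is still the one that chose the members, and the partner lists were drawn up with earlier results of these data known. Of 188 partners listed, 185 were tested, 182 of them outside the stretch. With ganciclovir 22 were higher and 18 lower in HSVTK than in Control cells, 21.98% in all, beside 26.1% of all tested genes (11.1% higher and 14.9% lower) and 35.1% of genes with a mean of at least 5 CPM. With DMSO 42 were higher and 38 lower, 44.0% in all, beside 33.7% (16.4% higher and 17.3% lower) and 46.1%. The median ratio of the 182 was 1.01 with ganciclovir and 1.02 with DMSO. The first count was 22 without HSVTK GANC 2, and the second 49 without Control DMSO 1 and 52 without HSVTK DMSO 1.

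Most partners outside the stretch had ratios near 1, where the member itself was near 0.5, a gap that is described here and not tested. In the CCT chaperonin, 7 partners had ratios of 0.893 to 1.07 with ganciclovir and 0.919 to 1.03 with DMSO, where Cct7 was at 0.498 and 0.4999. Partners of Mcm2 in the MCM helicase were at 0.925 to 0.994 and 0.907 to 1.26, those of Polr1a in RNA polymerase I at 0.870 to 1.23 and 0.774 to 1.06, and those of Dctn1 in dynactin at 0.855 to 1.101 and 0.829 to 1.19. In the mitochondrial ribosome 25 partners were at 0.861 to 1.254 and 0.775 to 1.251, against 0.466 and 0.478 for Mrpl35. The 3 partners that lie in the stretch were low as well: Lsm5 was at 0.524 and 0.507, Suclg1, the alpha subunit shared by both succinyl-CoA ligases, at 0.571 and 0.514, and Chchd6, of the MICOS complex, at 0.596 and 0.682. Sucla2, the subunit that pairs with Suclg1 in place of Suclg2 and lies elsewhere, was at 1.04 with ganciclovir (adjusted p = 0.69) and 0.855 with DMSO (adjusted p = 0.0484).

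**Figure D5:**
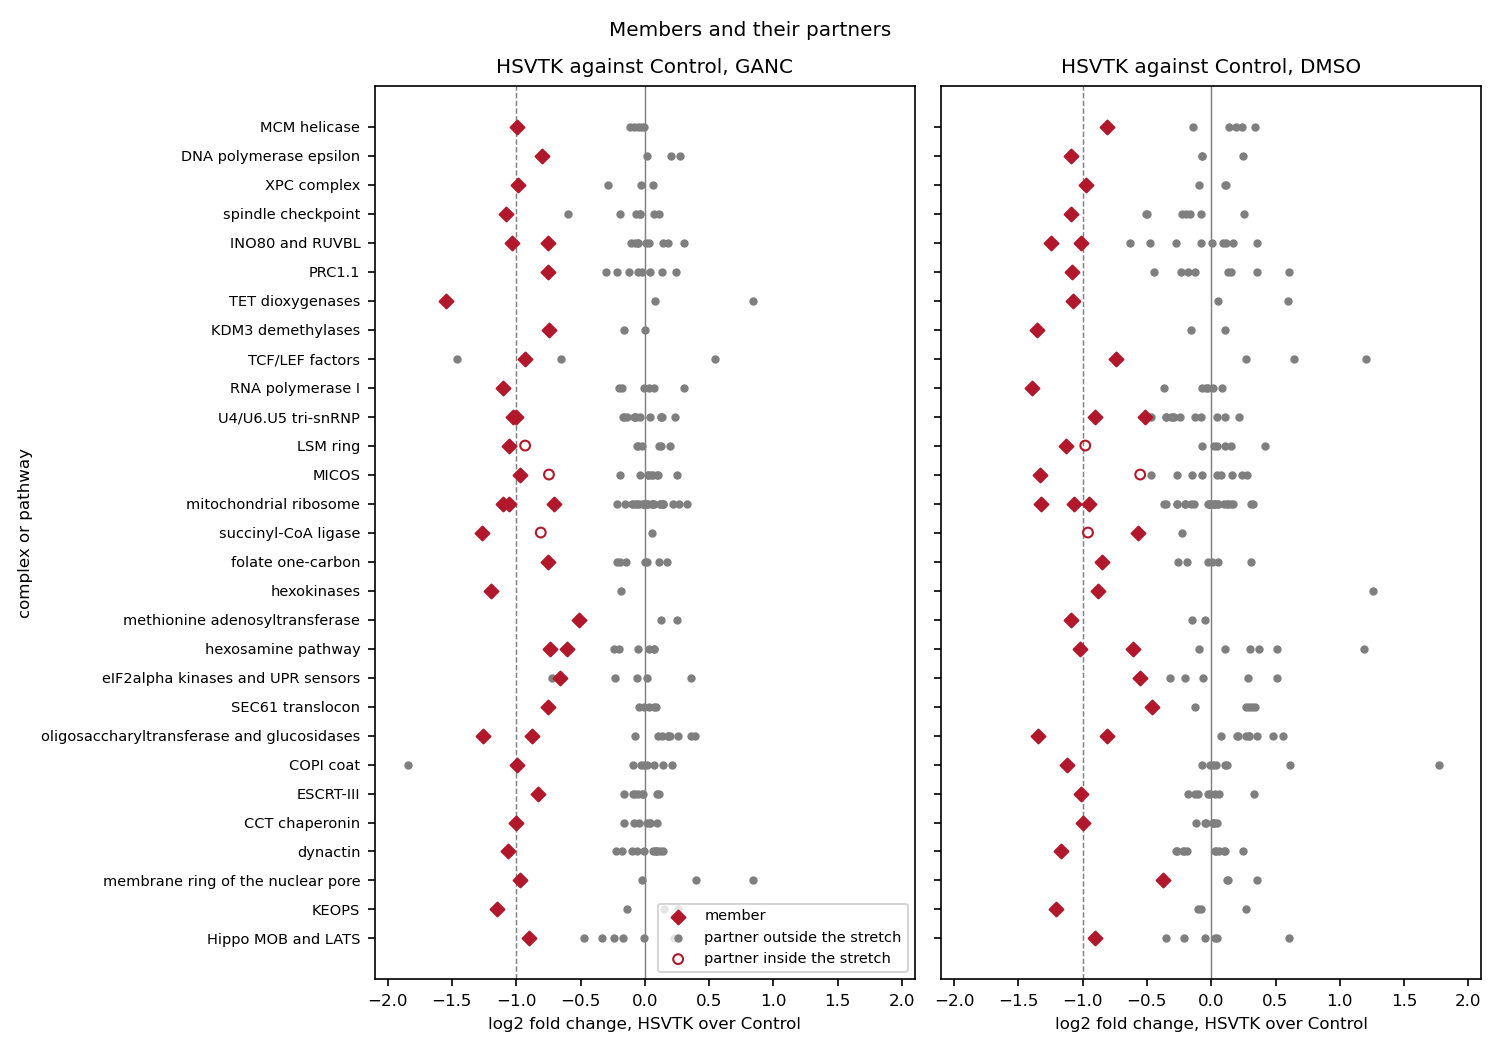
Log2 fold change, HSVTK over Control, of members (red diamonds) and their partners outside (grey) and inside the stretch (open red) in 29 complexes and pathways, with ganciclovir (left) and DMSO (right); the dashed line marks a ratio of 0.5. Members and the 3 partners inside the stretch lie left of 0, and partners outside it scatter around 0, with median ratios of 1.01 and 1.02.

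The sets of this paragraph were picked after their values were seen. Beside their counts, 11.1% of all tested genes were higher in HSVTK cells with ganciclovir and 16.4% with DMSO. Of genes with a mean of at least 5 CPM, 35.1% and 46.1% were called in either direction. Partners of Rpn1 and Mogs, the oligosaccharyltransferase subunits and glucosidases that build and trim N-glycans, were higher in HSVTK cells in 6 of 9 with ganciclovir and in 8 of 9 with DMSO, with median ratios of 1.13 and 1.23. The first count was 2 without Control GANC 1 and 3 without either Control DMSO library, either HSVTK DMSO library or HSVTK GANC 1, and the second was 5 without Control DMSO 1. Partners of Sec61a1 in the translocon were higher in 4 of 5 with DMSO, a count of 2 without Control DMSO 1, and were at 0.971 to 1.06 with ganciclovir. In the U4/U6.U5 tri-snRNP, the complex of Snrnp27 and Usp39, 7 of 12 partners were lower and 1 higher with DMSO, with 5 called without Control DMSO 1. With ganciclovir 1 was higher and 1 lower, at a median ratio of 0.963; 4 were called without Control GANC 1 and 1 without either Control DMSO or either HSVTK DMSO library.

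Other sets with more than 50% of at least 5 partners called with DMSO, a bound chosen after the values were seen, moved in mixed directions or rested on single libraries. Spindle checkpoint partners of Mad2l1 were higher in 1 and lower in 5 of 7 with DMSO, a count of 6 called that was 2 without Control DMSO 1 and 3 without any 1 of Control DMSO 2, HSVTK DMSO 1 and HSVTK DMSO 2. With ganciclovir 2 were lower, and 1 was called without Control GANC 1 or HSVTK GANC 2. Dynactin partners of Dctn1 were higher in 1 and lower in 5 of 11 with DMSO, with 2 called without Control DMSO 1 and 1 without HSVTK DMSO 1. MCM partners of Mcm2 were higher in 3 and lower in 1 of 5, with 2 called without Control DMSO 1, Control DMSO 2 or HSVTK DMSO 1. Partners of Pcgf1 in its Polycomb complex were higher in 2 and lower in 3 of 8, with 3 called without Control DMSO 1 or either HSVTK DMSO library. Kinases of eIF2alpha and sensors of the unfolded protein response, partners of Eif2ak3, were higher in 2 and lower in 1 of 5. Fewer of them were called without HSVTK DMSO 1.

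Some partners of single members moved further. Why they did so was not tested, and their levels were not compared with those of the genes beside them. Tet2, a relative of Tet3, had 174 and 171 CPM in HSVTK GANC and 168 and 156 CPM in HSVTK DMSO, against 102 and 90.5 CPM in Control GANC and 102 and 111 CPM in Control DMSO libraries, and was higher in HSVTK cells by 0.84 ± 0.07 with ganciclovir (adjusted p = 2.0e-10). All HSVTK libraries lay above all Control libraries, the reverse of Tet3. Bub1b, a spindle checkpoint kinase that acts with Mad2l1, had 264 and 272 CPM in HSVTK GANC and 291 and 293 CPM in HSVTK DMSO, against 395 and 415 CPM in Control GANC and 407 and 418 CPM in Control DMSO libraries, and was lower by 0.59 ± 0.05 with ganciclovir (adjusted p = 1.9e-09). Eif2ak4, the GCN2 kinase, which like Eif2ak3 phosphorylates eIF2alpha, had 22.8 and 23.0 CPM in HSVTK GANC against 36.4 and 39.2 CPM in Control GANC libraries, and 27.6 and 28.7 CPM in HSVTK DMSO against 33.0 and 31.9 CPM in Control DMSO libraries. It was lower by 0.72 ± 0.09 with ganciclovir (adjusted p = 3.9e-07).

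Hk1, the sole tested partner of Hk2, had 38.2 and 31.6 CPM in HSVTK GANC against 38.8 and 40.7 CPM in Control GANC libraries, and 60.3 and 62.6 CPM in HSVTK DMSO against 27.6 and 23.8 CPM in Control DMSO libraries. Its log2 change was -0.19 ± 0.09 with ganciclovir (adjusted p = 0.15) and 1.26 ± 0.09 with DMSO (adjusted p = 1.8e-11). Among the TCF and LEF factors, partners of Tcf7l1, Lef1 had 5.58 and 6.49 CPM in HSVTK GANC against 16.3 and 16.9 CPM in Control GANC libraries, and 24.9 and 24.9 CPM in HSVTK DMSO against 11.1 and 10.5 CPM in Control DMSO libraries. It was lower with ganciclovir (-1.46 ± 0.12, adjusted p = 3.9e-10) and higher with DMSO (1.21 ± 0.11, adjusted p = 1.9e-09). Tcf7 followed the same order, at -0.65 ± 0.10 (adjusted p = 9.3e-06) and 0.27 ± 0.10 (adjusted p = 0.033), and Tcf7l2 was higher by 0.64 ± 0.19 with DMSO (adjusted p = 0.011), lost without Control DMSO 1 (0.65) or HSVTK DMSO 1 (0.40). Ino80e, of the INO80 remodeller, was lower by 0.64 ± 0.07 with DMSO (adjusted p = 2.3e-08), with 77.4 and 77.3 CPM in HSVTK DMSO against 117 and 123 CPM in Control DMSO libraries. Copz2, of the COPI coat, and Mthfd2l, a relative of Mthfd2, were called at low levels: Copz2 had 0.412 and 0.239 CPM in HSVTK GANC against 1.34 and 0.995 CPM in Control GANC libraries (-1.84 ± 0.52, lost without HSVTK GANC 2, at -1.51), and 1.84 and 2.42 CPM in HSVTK DMSO against 0.985 and 0.239 CPM in Control DMSO libraries (1.77 ± 0.45, lost without Control DMSO 2, at 1.12, and at 3.14 without Control DMSO 1). Mthfd2l had 2.09 and 1.87 CPM in HSVTK DMSO against 3.76 and 3.32 CPM in Control DMSO libraries (-0.84 ± 0.24, lost without Control DMSO 1, at -0.74, or HSVTK DMSO 2, at -0.76).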

How the data were processed

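RNA from 8 mouse embryonic stem cell libraries was sequenced by the authors. The deposited table holds whole-number counts per gene and FPKM values made by the authors, with a transcript length per gene. The build is GRCm39, and the tools are DESeq2 1.40.2, featureCounts 2.0.1, HISAT2 2.1.0 and fastp 0.23.2, per the submitters' processing notes, which give neither role nor order. No source used here gives the strand setting, the handling of multiply mapped reads or the annotation release, so genes with overlapping or near-identical partners are uncertain. All 456080 FPKM values equalled count per length and library total within 1e-05.

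From the counts, edgeR 4.0.16 in R 4.3.3 (filterByExpr, TMM, quasi-likelihood test, 1 fit over all 4 groups with 4 residual degrees of freedom, Benjamini-Hochberg adjustment over 17976 genes, threshold 0.05) gave fold changes. Standard errors are the fold change over the root of the F statistic. CPM is the count over the TMM-scaled library total, times 1000000. The members, the gene lists and the partner lists were chosen with earlier results of these data known. By the naming rule, values in every library are given for the 6 members with the lowest and the 6 with the highest mean ratio, for the 6 called members with the largest change in each of 3 drug comparisons and for Scrn1 and Tmf1; Mad2l1, Cct7 and Polr1a were added after their values were seen. Partners are named where they are a member's sole partner, lie in the stretch or are among the 6 called with the largest change, and neighbours are the 5 genes at each end with a mean of at least 5 CPM. Alternatives were DESeq2 1.42.0, limma 3.58.1 on log2(FPKM + 1) and log2(FPKM + 0.1), other filters and scalings, a replicate block and leaving out each library. Gene order came from an annotation of GRCm38 (GENCODE vM21), used for order only, since the files use GRCm39. The members Aup1, Htra2, Mrpl19, Pcgf1, Sec61a1, Usp39 and Xpc have no promoter window here. Libraries held 29704460 to 34184475 counts.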

Additional observations from a re-analysis of the deposited data

Results flagged for a closer look

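In 22 members the response to ganciclovir differed between HSVTK and Control cells by edgeR's test of the difference itself, adjusted over all tested genes. The log2 difference, HSVTK response minus Control response, was positive in 14 members. It was 0.69 for Ggcx, 0.61 for Kdm3a, 0.60 for Rpia, 0.58 for each of Mat2a, Tia1 and Scrn1, and 0.54 for Smarcad1. It was 0.36 for Zfp638 and Immt, 0.30 for Polr1a, 0.29 for Nfu1 and Pole4, 0.26 for Ruvbl1 and 0.24 for Ptcd3. In 8 members it was negative, at -0.29 for Sec61a1, -0.32 for Hk2, -0.37 for Pcbp1, -0.49 for Snrnp27, -0.59 for Nup210, -0.70 for Suclg2, -1.08 for Lrig1 and -1.22 for Rnf103. Leaving out 1 library ended the call of 12 of them: 7 different libraries did so for Ruvbl1, 6 each for Scrn1, Pole4, Nfu1, Ptcd3 and Zfp638, 5 each for Rpia and Rnf103, 4 each for Polr1a and Sec61a1, and 2 each for Ggcx and Snrnp27. With each of the 8 libraries left out in turn, the values of these 12 ran over 0.17 to 0.33 for Ruvbl1, 0.45 to 0.68 for Scrn1, 0.20 to 0.35 for Pole4, 0.22 to 0.33 for Nfu1, 0.17 to 0.28 for Ptcd3, 0.19 to 0.52 for Zfp638, 0.43 to 0.75 for Rpia, -1.46 to -0.98 for Rnf103, 0.16 to 0.40 for Polr1a, -0.38 to -0.22 for Sec61a1, 0.57 to 0.77 for Ggcx and -0.64 to -0.39 for Snrnp27. The difference moved by over 1.5 times for Zfp638 without Control GANC 2 (0.19) or HSVTK GANC 1 (0.23), for Ruvbl1 without Control GANC 1 (0.17) and for Polr1a without HSVTK GANC 1 (0.16).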

How the results depend on the processing

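None of the 57 called results of named members and partners reversed its direction under any alternative run. Over all alternative runs, 79 values of a single member's ratio moved by at least the SD of its HSVTK libraries and 353 did not. With library size as the only scaling the median ratio of the members was 0.529 with ganciclovir and 0.505 with DMSO, without a filter 0.502 and 0.494, and with at least 1 CPM in 2 libraries 0.498 with DMSO. With limma on log2(FPKM + 1) the medians were 0.605 and 0.552, and on log2(FPKM + 0.1) 0.534 and 0.515, a scale that understates the change of low genes. On those 2 scales ganciclovir changed 5 and 9 members in HSVTK cells and 1 and 1 in Control cells, and the responses differed in 7 and 8, and 23 and 23 partners were called with ganciclovir; 23 were also called in a fit of only the libraries compared. DESeq2 called 15, 12 and 22 members and 37 and 80 partners. Leaving out 1 library at a time gave 7 to 16 called members in HSVTK cells, 2 to 11 in Control cells, 12 to 21 for the difference, medians of 0.505 to 0.521 with ganciclovir and 0.495 to 0.505 with DMSO, and 22 to 38 partners with ganciclovir and 49 to 88 with DMSO. The cause of these moves was not tested. Same-numbered replicates showed no strong shared deviation (correlations of -0.164 to 0.098). Such values cannot tell whether same-numbered libraries were grown or prepared together, which the labels do not give. With a replicate block 14, 9 and 21 members and 35 and 75 partners were called, at medians of 0.511 and 0.495. With crossed pairs, chosen after seeing the data, 10 members were called in Control cells (Control GANC crossed) and 72 partners with DMSO (HSVTK DMSO crossed). With 2 libraries per group, small changes could not be told from the spread.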
